A study of Mus musculus with 7 samples.

Results

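The translation initiation and elongation factors are the soluble proteins that bring ribosomes onto messenger RNA, find the start codon and then move the ribosome along the coding sequence. Their genes were taken by name from the array's annotation: every probe set paired with 1 gene symbol that begins with Eif1 to Eif6 or with Eef1 or Eef2, except the eIF2 kinases (Eif2ak) and the sex-linked eIF2 subunits Eif2s3x and Eif2s3y. This gave 95 of 45141 probe sets, or 95 of the 28898 probe sets with 1 symbol, and 46 of 17097 genes. A further 12 probe sets list a member beside another gene and were left out. For each gene the probe set with the highest mean level was used, and 45 of the 46 genes lay above a filter that left out the lowest 25% of genes by mean level, so that 12822 genes were tested in all.

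The 7 mouse arrays profiled colon adenoma cells that were sorted for the epithelial surface protein Epcam and for Tomato, a fluorescent reporter of Mex3a promoter activity. Mex3a encodes an RNA-binding protein of intestinal stem and progenitor cells. The KO group (3 arrays) is Mex3a tom/flox and the WT group (4 arrays) is Mex3a Tom/+, so each animal had 1 reporter allele. All animals of both groups also carried Villin CreERT2, a Cre recombinase that the Villin promoter expresses in gut epithelium and that tamoxifen activates, and APC fl/+, 1 floxed copy of the tumour suppressor Apc. Every animal received 4 shots of tamoxifen, then 2% dextran sulfate sodium (DSS), which injures the colon lining, in the drinking water for 5 days, and adenomas were taken 2 months after the DSS. The animals' age and sex are not in the labels, and the labels do not say whether each array is a separate animal, so p-values measure the spread between these arrays only. RNA of 2000 cells was amplified over 24 cycles before 8 µg of cDNA was labelled. In such bulk samples, fewer cells of a type and less RNA per cell cannot be told apart.

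Initiation in the cytoplasm starts when eIF2 carries the initiator tRNA to the small ribosomal subunit, where eIF1, eIF1A, eIF3 and eIF5 hold the complex in a state that can scan for a start codon. The eIF4 factors recognise the cap of the messenger RNA and unwind it, and the 4E-binding proteins, which the kinase mTORC1 controls, keep the cap-binding protein eIF4E from its scaffold. In elongation eEF1A brings each aminoacyl-tRNA to the ribosome, the eEF1B subunits recharge it with GTP, and eEF2 moves the ribosome by a codon. In the intestine and its Apc-deficient tumours this machinery is known as a control point of growth downstream of Myc and mTORC1.

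The labels place the arrays in 2 scan batches: batch 1 holds WT replicates 1 and 2 and KO replicate 1, and batch 2 holds WT replicates 3 and 4 and KO replicates 2 and 3. A scan batch says when or how arrays were scanned and nothing more. Median log2 levels over all probe sets lay between 5.96 and 6.00 on the 7 arrays. The brightest Mex3a probe set had a mean log2 level of 7.33 ± 0.22 in the 4 WT arrays and of 6.18 ± 0.11 in the 3 KO arrays (SD), a difference of -1.13; whether it lies in the floxed part was not examined. Epcam read 11.9 in both groups, and of the leukocyte markers Ptprc, Cd3e, Ms4a1, Itgam and S100a8 lay below the level filter. The summed level of the 14 leukocyte markers was at most 12.54 in WT and between 12.60 and 12.74 in KO, on the log2 scale. The highest level was that of Lyz2, with a mean of 12.03 in WT and 12.45 in KO. Of the 9 leukocyte markers above the filter, 4 had a higher and 5 a lower mean in KO, with a median log2 difference of -0.01. The 10 fibroblast markers summed to 11.64 to 11.86 in WT and 11.49 to 11.64 in KO, with Vim at means of 11.50 and 11.18. Of the 6 fibroblast markers above the filter, 3 were higher and 3 lower in KO, with a median difference of -0.01. The 8 Paneth and goblet cell markers on the array summed to 11.48 to 12.77 in WT and 12.42 to 13.22 in KO, and the 7 proliferation markers to 12.26 to 12.48 and 12.28 to 12.54. WT replicate 2 and KO replicate 3 had signal from Y-linked genes and the other arrays did not. The part of these differences in the results below was not tested, except where values without an array are given.

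The promoters of the members that the results below turn on are given first, so that the reader can see the sequences behind the names. RefSeq promoter windows of GRCm38.p6 (250 bases before to 50 after the annotated start) matched 35 of the 46 members by gene identifier. The 150 bases before the start are printed, 5′ to 3′ on the gene's own strand, for the members with unadjusted p under 0.05 that matched and for Eif4a1, the helicase of the cap complex. Capitals mark, on either strand, the E-box CACGTG that Myc and its relatives bind, the ETS motif CCGGAAG or the CREB and ATF motif TGACGT.
Eif1ax, chrX:159372028-159372177, plus strand: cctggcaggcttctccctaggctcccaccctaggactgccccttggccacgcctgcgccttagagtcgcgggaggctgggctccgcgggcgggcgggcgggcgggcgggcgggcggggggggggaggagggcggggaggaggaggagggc
Eif1b, chr9:120492456-120492605, plus strand: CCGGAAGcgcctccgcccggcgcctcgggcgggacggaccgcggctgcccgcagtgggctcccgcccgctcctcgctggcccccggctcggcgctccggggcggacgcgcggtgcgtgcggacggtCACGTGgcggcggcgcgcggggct
Eif5, chr12:111537951-111538100, plus strand: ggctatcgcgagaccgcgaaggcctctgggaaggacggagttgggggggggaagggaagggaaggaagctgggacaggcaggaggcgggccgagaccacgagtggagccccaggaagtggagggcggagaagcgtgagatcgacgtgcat
Eif3d, chr15:77970825-77970974, minus strand: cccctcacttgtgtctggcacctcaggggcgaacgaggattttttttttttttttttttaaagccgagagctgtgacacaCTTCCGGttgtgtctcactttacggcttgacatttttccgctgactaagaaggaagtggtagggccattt
Eif4a1, chr11:69672424-69672573, minus strand: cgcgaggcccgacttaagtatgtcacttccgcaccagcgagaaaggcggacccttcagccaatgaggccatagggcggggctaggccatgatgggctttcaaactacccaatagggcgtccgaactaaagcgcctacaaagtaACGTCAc

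Within the printed stretches, Eif1b had an E-box at position -24 from the annotated start and an ETS motif at -150, Eif3d had an ETS motif at -70, and Eif4a1 had the CREB and ATF motif at -7. Eif1ax and Eif5 had none of these letters there. Over the whole windows, CACGTG was found in 10 of 35 members (28.6%), against 11.3% of the 10246 tested genes with a window and 8.09% of all 27025 genes in the table. CCGGAAG was found in 13 members (37.1%), against 1842 of the 10246 tested genes and 9.93% of all genes. TGACGT was in 7 members (20.0%), against 12.4% and 8.37%, and GGGCGG, the GC box, in 26 (74.3%), against 64.1% and 38.2%. TATAAA was in 3 members (8.57%), against 9.82% of tested genes and 15.7% of all genes. The searches covered both strands, and no motif contains another. These are matches of letters in a window and not sites. The 10 tested members with CACGTG, among them Eif1b, Eif4a1, Eif4e, Eif5a, Eef2 and Eef2k, had a median log2 difference of -0.02 between KO and WT with 4 of 10 higher in KO. The 24 without it had a median of -0.002 with 12 of 24 higher.

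The levels of translation factor genes in KO and WT adenoma cells lay close together. No member passed the test in limma with Benjamini-Hochberg adjustment over all 12822 genes (0 of 45 at adjusted p under 0.05), and neither did any other gene, so the background is 0%. At an unadjusted limma p under 0.05, 4 members were higher in KO (Eif1ax, Eif4e3, Eif1b and Eif5), where 7.14% of all tested genes were, and 1 was lower (Eif3d), where 4.26% were. These shares of the members are near the background. Arrays of the groups did not overlap for 1 member with higher KO values (Eef1e1), against 2.68% of all genes, and for 4 with lower KO values (Eif3d, Eif4a1, Eif3h and Eif4b), against 3.23% of all genes. With array weights, which let limma give noisy arrays less influence, 5 members passed at adjusted p under 0.05 (Eif5, Eif1ax, Eif1b, Eif3m and Eef1akmt1, all higher in KO), beside 10.7% of all genes; the weights ranged from 0.297 for KO replicate 1 to 3.04 for KO replicate 2.

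The median log2 difference of the 45 members was 0.01, with 24 of 45 (53.3%) higher in KO, against a median of -0.02 and 43.9% over all tested genes. The member furthest from 0 was Eif1a at 0.33, a 25.4% higher level on the linear scale, with a 95% interval from -0.22 to 0.87. Differences beyond 0.25 in either direction were seen in 3 of 45 members (6.67%) and in 11.9% of all genes. The median SD within a group was 0.12 for the members and 0.13 for all genes. The intervals drawn by role group show that most members have a 95% interval spanning 0.

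**Figure D1:**
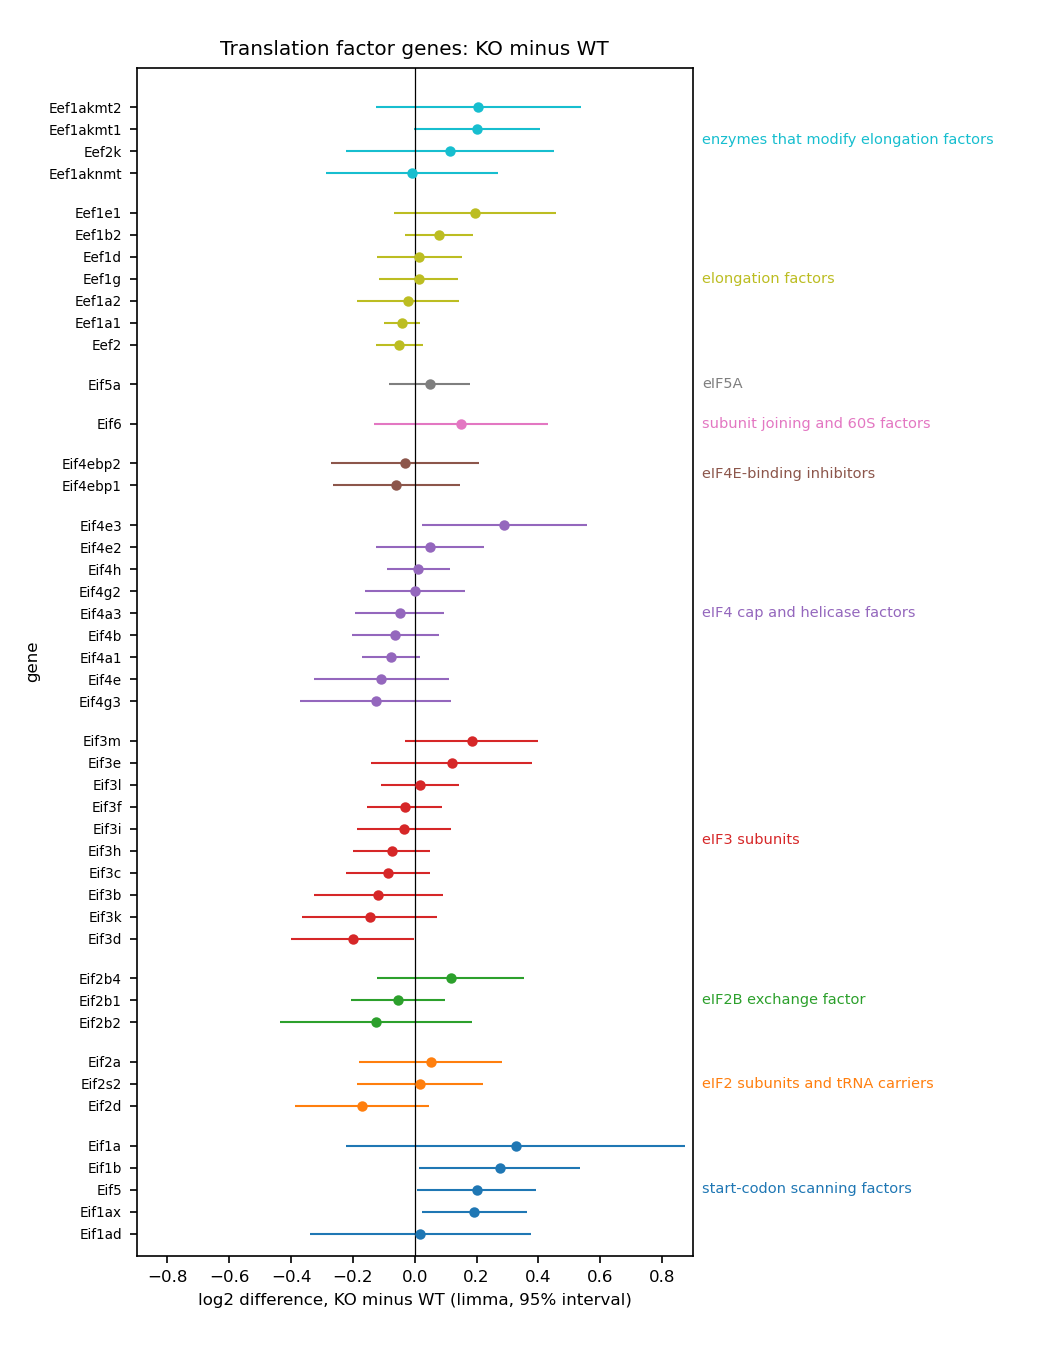
Log2 difference between KO and WT (x axis) for each of the 45 translation factor genes (y axis), grouped and coloured by role; points are limma estimates with scan batch as a covariate and lines are 95% intervals. The interval excludes 0 for Eif1ax, Eif1b, Eif5 and Eif4e3 on the higher side and for Eif3d on the lower side.

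The start-codon scanning factors had the most even direction of any role group with over 3 genes: all 5 had a higher mean in KO with a median log2 difference of 0.20, where 43.9% of all genes had a higher mean, and 3 had an unadjusted limma p under 0.05, where 7.14% of all genes did. When arrays were shifted to a common median or quantile-normalized, 4 of the 5 were higher. The smallest adjusted limma p in the group was 0.417.

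Eif1ax encodes the X-linked eIF1A, which binds the ribosomal decoding site during scanning. WT replicates 1 to 4 had log2 levels of 10.24, 10.36, 10.02 and 10.09, and KO replicates 1 to 3 had 10.37, 10.31 and 10.35. The 3 KO arrays lay close together, while WT replicates 3 and 4 were the low arrays and WT replicate 2 lay among the KO arrays. The log2 difference was 0.19 (SE 0.07), or 14.3% on the linear scale, with an adjusted limma p of 0.417 and an exact permutation p of 0.171 over all arrangements of the 7 arrays.

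Eif1b encodes a close relative of eIF1, the factor that guards against starting at the wrong codon. It read 8.24, 8.32, 7.80 and 7.75 in WT, against 8.29, 8.16 and 8.29 in KO. WT replicate 2 lay above the KO arrays and WT replicate 1 among them, and WT replicates 3 and 4 were clearly below every other array. The difference of 0.27 (SE 0.11) had an adjusted limma p of 0.429 and an exact permutation p of 0.343.

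Eif5 encodes the protein that triggers GTP hydrolysis by eIF2 at the start codon. It read 10.35, 10.44, 10.12 and 10.18 in WT and 10.40, 10.48 and 10.47 in KO. As for Eif1ax and Eif1b, WT replicates 3 and 4 were the low arrays, and WT replicate 2 lay among the KO arrays. The difference was 0.20 (SE 0.08), with an adjusted limma p of 0.433 and an exact permutation p of 0.143. Of the 5 probe sets for Eif5, all had a positive difference, from 0.07 to 0.25, and the groups did not overlap for 1 of them, which read 10.02, 10.05, 9.73 and 9.87 in WT and 10.13, 10.16 and 10.15 in KO.

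Eif1a, a near-identical autosomal copy of Eif1ax, varied most between arrays of a group among the members, at 8.45, 8.80, 7.85 and 8.03 in WT and 8.26, 8.55 and 8.90 in KO. WT replicates 3 and 4 lay below every KO array and WT replicates 1 and 2 among the KO arrays, and the difference of 0.33 had an SE of 0.24. A second, dimmer probe set of Eif1a, marked as cross-reactive, read 7.71, 7.72, 7.71 and 7.51 in WT and 7.80, 7.80 and 8.03 in KO. There the groups did not overlap, and the difference was 0.22 with an adjusted limma p of 0.519 over all single-symbol probe sets and an exact permutation p of 0.0286, the smallest that 35 arrangements can give. Because the copies are so alike, array probes may not tell their transcripts apart. Eif1ad, which carries an eIF1A-like domain, was near 0 at 0.02 (SE 0.15).

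For the scanning factors the estimated differences were higher in batch 2 than in batch 1, where they rest on 1 KO array. The group's median log2 difference was 0.005 in batch 1, where 3 of 5 were higher in KO, and 0.33 in batch 2, where all 5 were. Eif1b differed by 0.01 in batch 1 and by 0.45 in batch 2, Eif5 by 0.005 and 0.33, and Eif1ax by 0.07 and 0.28. Eif1a had opposite signs, -0.36 and 0.78, and so did Eif1ad, -0.36 and 0.27. The genotype by batch term had an unadjusted limma p of 0.031 for Eif1b, 0.029 for Eif5, 0.147 for Eif1ax, 0.004 for Eif1a and 0.028 for Eif1ad. The adjusted values were 0.370, 0.362, 0.523, 0.344 and 0.359, so a difference between the batches was not called. As a mean over the 5 genes, deviation from the average of all arrays was 0.04, 0.18, -0.25 and -0.27 in WT replicates 1 to 4 and -0.02, 0.09 and 0.23 in KO replicates 1 to 3. None of the 5 had an unadjusted limma p under 0.05 once WT replicate 1, WT replicate 3, WT replicate 4, KO replicate 2 or KO replicate 3 was left out in turn, nor without the batch term. Without KO replicate 1, 4 of 5 had one.

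A measure of RNA quality moved in part with the same arrays. The Gapdh control probe sets for the 3′ and 5′ ends differed by -0.12 in WT replicates 3 and 4, by -0.13 in WT replicate 1 and by -0.21 in WT replicate 2, and by -0.15, -0.21 and -0.24 in KO replicates 1 to 3. The corresponding actin values were -0.49, -0.43, -0.50 and -0.45 in WT replicates 1 to 4 and -0.30, -0.51 and -0.45 in KO replicates 1 to 3. They did not set WT replicates 3 and 4 apart from the other arrays, and actin was not used as a covariate. With the Gapdh value as a covariate, the median difference of the scanning factors was 0.08, 3 of 5 were higher in KO and 0 had an unadjusted limma p under 0.05. Eif1ax was then at 0.10, Eif1b at 0.12 and Eif5 at 0.08.

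**Figure D2:**
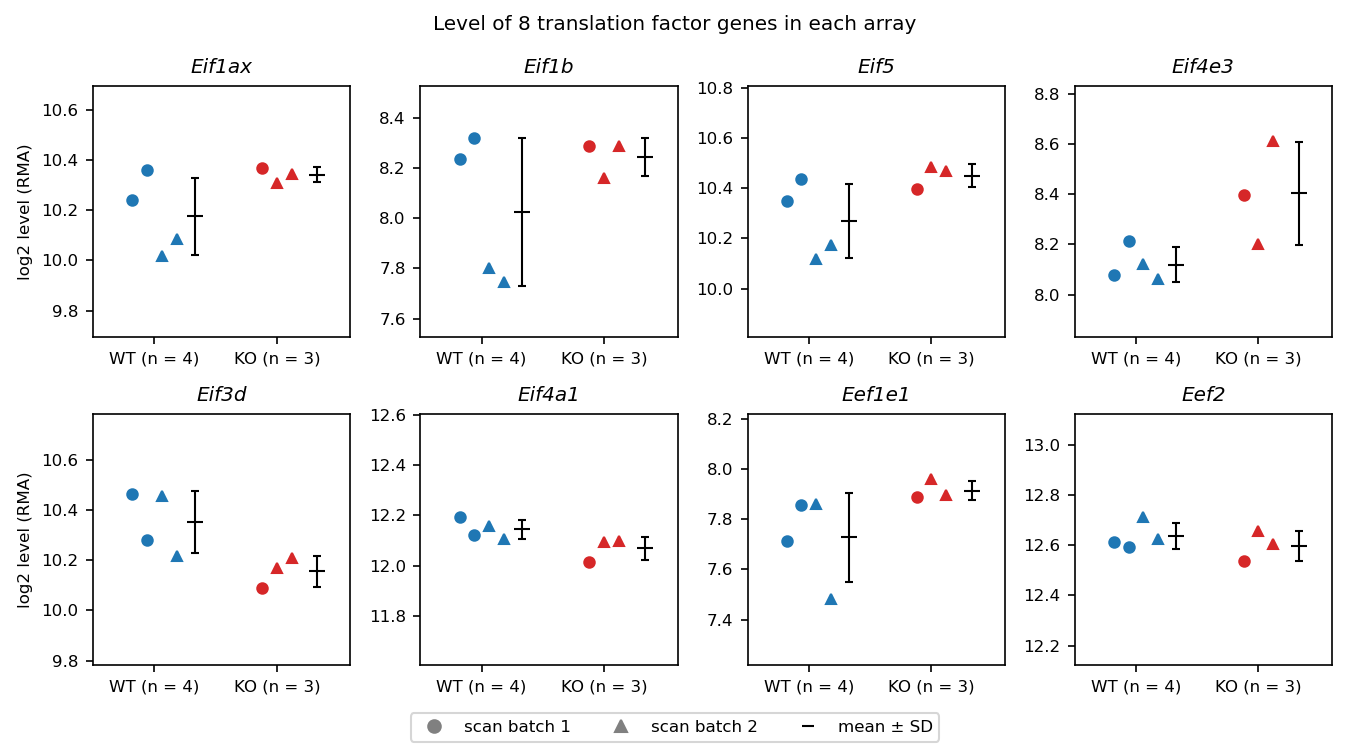
Log2 level (RMA, y axis) of 8 translation factor genes in each array of the WT (blue, n = 4) and KO (red, n = 3) groups; circles are scan batch 1, triangles scan batch 2, and bars show mean ± SD. All panels span 1 log2 unit. WT replicates 3 and 4 (blue triangles) are the low WT arrays for Eif1ax, Eif1b and Eif5, while for Eif4a1 and Eef2 all arrays sit within a narrow band.

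The genes that load the initiator tRNA showed no shared direction. Of the 3 tested members that carry it, Eif2s2 (the beta subunit of eIF2) was at 0.02 (SE 0.09) and Eif2a (an alternative carrier, not an eIF2 subunit) at 0.05 (SE 0.10). Eif2d, a carrier that also acts in ribosome recycling, read 8.82, 8.59, 8.63 and 8.57 in WT and 8.59, 8.34 and 8.45 in KO. KO replicates 2 and 3 lay below every WT array and KO replicate 1 among them. Its difference of -0.17 (SE 0.09) had an adjusted limma p of 0.503, and the other 3 probe sets of Eif2d had the opposite sign, at 0.04, 0.10 and 0.01.

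eIF2B recharges eIF2 with GTP and is the target of the integrated stress response. Of its tested subunits, Eif2b1 was at -0.05 (SE 0.07), Eif2b2 at -0.13 (SE 0.13) and Eif2b4 at 0.12 (SE 0.10), with a lowest adjusted limma p of 0.648. Eif2b4 read 9.82, 9.91, 9.64 and 9.74 in WT and 9.72, 9.95 and 10.01 in KO, with KO replicate 1 below 3 of the WT arrays. The catalytic subunit gene Eif2b5 was the member below the level filter. Its probe set read 4.85, 4.77, 4.75 and 4.93 in WT and 4.67, 4.75 and 4.60 in KO, without overlap, below the filter at 5.28, and it was not tested in the gene fit.

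The 10 tested subunits of eIF3, the largest initiation factor, included 7 with a lower mean in KO, with a median difference of -0.05, where 7192 of all 12822 genes had a lower mean and the median was -0.02. The medians were -0.07 after shifting arrays to a common median, where 8 were lower, and -0.07 after quantile normalization, where 7 were. The arrays of the groups did not overlap for 2 of the 10 subunits, Eif3d and Eif3h, both lower in KO, as in 3.23% of all genes.

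Eif3d, the subunit that can itself bind the cap of some messenger RNAs, read 10.46, 10.28, 10.46 and 10.22 in WT and 10.09, 10.17 and 10.21 in KO. All KO arrays lay below all WT arrays, with KO replicate 3 and WT replicate 4 nearly touching. The difference was -0.20 (SE 0.09), or -13.0% on the linear scale, with an adjusted limma p of 0.437 and an exact permutation p of 0.0571. It was -0.28 in batch 1 and -0.15 in batch 2, and -0.20 with the Gapdh covariate. The second probe set gave -0.15.

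Eif3h, a subunit with an MPN domain, read 10.98, 10.99, 11.08 and 10.96 in WT and 10.94, 10.91 and 10.94 in KO. The groups were separated by less than the range within WT, and the difference was -0.08 (SE 0.05), with an adjusted limma p of 0.585. Eif3m, a PCI-domain subunit, had a higher mean in KO, by 0.18 (SE 0.09). It read 9.77, 9.70, 9.38 and 9.40 in WT and 9.70, 9.71 and 9.73 in KO. Again WT replicates 3 and 4 were the low arrays, and WT replicate 1 was the highest of all. In batch 1 Eif3m differed by -0.03 and in batch 2 by 0.33.

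The remaining eIF3 subunits had intervals spanning 0. The core subunits Eif3b and Eif3c were at -0.12 (SE 0.09) and -0.09 (SE 0.06), Eif3k was at -0.15 (SE 0.09) and Eif3e at 0.12 (SE 0.11). Eif3f, Eif3i and Eif3l were at -0.03, -0.03 and 0.02. Eif3k read 10.67, 10.41, 10.71 and 10.70 in WT and 10.59, 10.39 and 10.48 in KO, where WT replicate 2 was low among the WT arrays. Eif3l had little spread, at 10.55 to 10.57 in WT and 10.55 to 10.60 in KO.

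**Figure D3:**
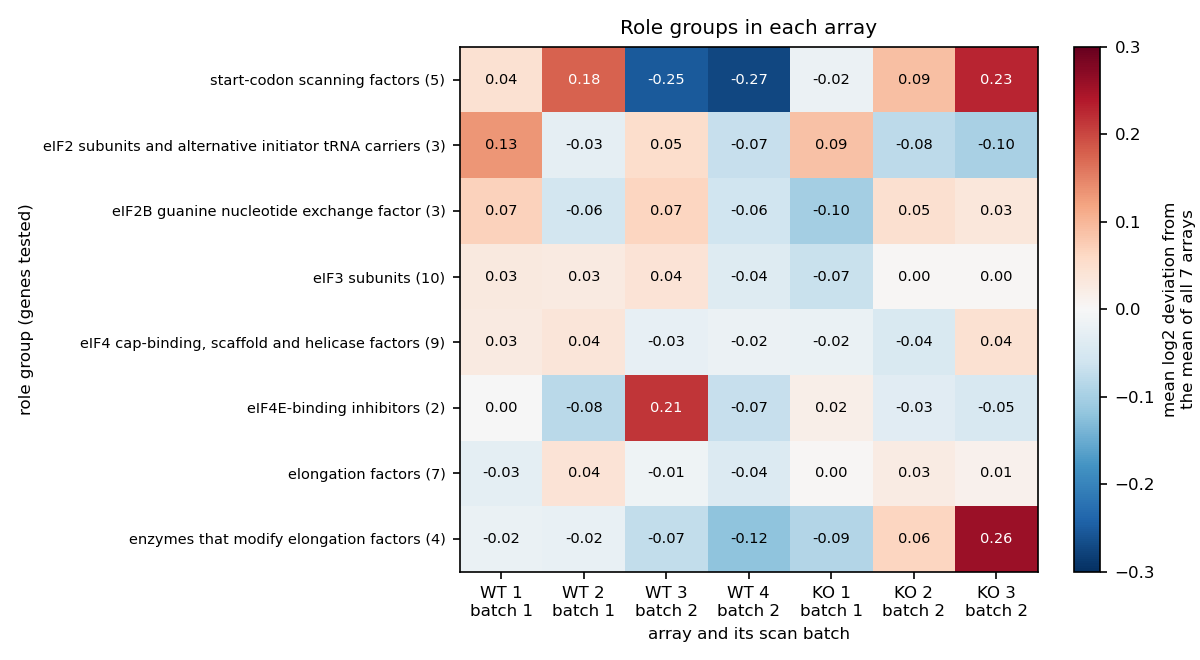
Mean log2 deviation from the average of all 7 arrays (colour and printed value) for the role groups with over 1 tested gene (rows, number of genes in brackets) in each array (columns, with scan batch). The scanning factors run from -0.27 in WT replicate 4 to 0.23 in KO replicate 3, while the eIF3 subunits and the elongation factors stay between -0.07 and 0.04 in every array.

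Among the 9 tested eIF4 genes, which bind and unwind the cap, 4 had a higher and 5 a lower mean in KO, with a median of -0.05. Eif4e3, an unusual member of the cap-binding family, was the only one with an unadjusted limma p under 0.05. It read 8.08, 8.21, 8.12 and 8.06 in WT and 8.40, 8.20 and 8.61 in KO. KO replicates 1 and 3 lay above every WT array and KO replicate 2 just below WT replicate 2. The difference was 0.29 (SE 0.11), or 22.3% on the linear scale, with an adjusted limma p of 0.420 and an exact permutation p of 0.0571. It was 0.25 in batch 1 and 0.32 in batch 2, but 0.06 in its second probe set.

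Eif4e itself, the main cap-binding protein, read 6.87, 7.05, 7.04 and 7.10 in WT and 6.71, 6.97 and 7.15 in KO. KO replicate 1 was the lowest and KO replicate 3 the highest array, and the difference was -0.11 (SE 0.09). Its repressive relative Eif4e2 was at 0.05 (SE 0.08) in its brightest probe set. The others of its 5 probe sets gave -0.04, -0.003, -0.10 and -0.34.

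Eif4a1, the helicase that unwinds the 5′ leader, read 12.19, 12.12, 12.16 and 12.11 in WT and 12.02, 12.09 and 12.10 in KO. All KO arrays lay below all WT arrays by a margin far smaller than the spread within either group. The difference was -0.08 (SE 0.04), or -5.25% on the linear scale, with an adjusted limma p of 0.479, and a second probe set gave -0.11. Its cofactor Eif4b read 10.22, 10.16, 10.20 and 10.19 in WT and 10.11, 10.15 and 10.14 in KO, also without overlap, with a difference of -0.06 (SE 0.06). The other Eif4b probe sets gave -0.17 and 0.12. The related cofactor Eif4h was at 0.01 (SE 0.04), and Eif4a3, a helicase of the exon junction complex, at -0.05 (SE 0.06).

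The scaffold gene Eif4g3 read 10.12, 9.70, 9.80 and 9.79 in WT and 9.74, 9.67 and 9.73 in KO. Apart from the high value of WT replicate 1 the arrays ran from 9.67 to 9.80, and the difference was -0.13 (SE 0.11). Eif4g2, which supports initiation without eIF4E, was at 0.002 (SE 0.07) in its brightest probe set, but another of its 5 probe sets read 8.66, 8.84, 8.39 and 8.39 in WT and 8.85, 8.92 and 8.99 in KO. In that probe set the KO arrays lay just above the WT arrays, and the difference was 0.38 with an adjusted limma p of 0.44 over all single-symbol probe sets. The major scaffold gene Eif4g1 was not analysed here.

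Both tested genes for inhibitors of cap binding had a slightly lower mean in KO, with intervals spanning 0. Eif4ebp1 read 8.63, 8.61, 8.92 and 8.70 in WT and 8.63, 8.71 and 8.70 in KO, with WT replicate 3 above all others, and differed by -0.06 (SE 0.09). Eif4ebp2 was at -0.03 (SE 0.10). The arrays measure transcripts, and the phosphorylation by which mTORC1 controls these proteins is not seen in them.

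Eif6, which keeps the large ribosomal subunit from joining too early, read 10.59, 10.97, 10.74 and 10.70 in WT and 10.65, 11.05 and 11.07 in KO. KO replicates 2 and 3 were the highest arrays and KO replicate 1 lay among the low WT arrays. The difference of 0.15 (SE 0.12) had an adjusted limma p of 0.623, and it was -0.13 in batch 1 and 0.34 in batch 2. Eif5a, the hypusine-bearing factor that helps ribosomes through difficult peptide bonds, read 11.98, 11.90, 11.999 and 11.84 in WT and 11.90, 11.98 and 12.07 in KO. Its groups overlapped, with a difference of 0.05 (SE 0.06), and a second probe set gave -0.10.

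The elongation factors lay close to 0. Of 7 tested, 4 had a higher and 3 a lower mean in KO, with a median of 0.01. Their mean deviation from the average of all arrays lay between -0.04 and 0.04 on every array. The 7 include by name Eef1e1, a scaffold protein gene described below, which had the largest difference of the group at 0.20. Eef1a1, which delivers aminoacyl-tRNA, read 12.96, 12.96, 12.93 and 12.95 in WT and 12.94, 12.90 and 12.86 in KO. KO replicates 2 and 3 lay below all WT arrays, and the difference was -0.04 (SE 0.03), or -2.85% on the linear scale. The 95% interval ran from -0.10 to 0.02, and without the trend of the variance on mean level the SE of Eef1a1 was 0.06.

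Eef2, which drives translocation, read 12.61, 12.59, 12.71 and 12.63 in WT and 12.54, 12.65 and 12.61 in KO. The groups overlapped, the difference was -0.05 (SE 0.03), its interval ran from -0.13 to 0.03, and without the trend its SE was also 0.06. The muscle and neuronal form Eef1a2 was at -0.02 (SE 0.07), and the exchange-factor subunits Eef1b2, Eef1d and Eef1g were at 0.08 (SE 0.05), 0.01 (SE 0.06) and 0.01 (SE 0.06).

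Eef1e1, which despite its name encodes a scaffold protein of the aminoacyl-tRNA synthetase complex, read 7.71, 7.85, 7.86 and 7.48 in WT and 7.89, 7.96 and 7.90 in KO. Every KO array lay above every WT array, though only just above WT replicates 2 and 3, and WT replicate 4 was the low array. The difference was 0.20 (SE 0.11), with an adjusted limma p of 0.523 and an exact permutation p of 0.143. It was 0.10 in batch 1 and 0.26 in batch 2.

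The enzymes that modify elongation factors had 3 of 4 genes with a higher mean in KO and a median of 0.16, which was -0.07 in batch 1 and 0.30 in batch 2 and 0.05 with the Gapdh covariate. Eef1akmt1, a lysine methyltransferase of eEF1A, read 9.13, 9.26, 9.02 and 8.97 in WT and 9.25, 9.32 and 9.27 in KO. WT replicate 2 lay within the KO arrays and the other WT arrays below them. The difference was 0.20 (SE 0.09), with an adjusted limma p of 0.437, and a second probe set gave -0.04. Eef1akmt2 was at 0.21 (SE 0.14), where KO replicate 3 at 6.68 stood above the other arrays at 5.96 to 6.18.

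Eef2k, the kinase that inactivates eEF2, read 7.21, 7.54, 7.54 and 7.51 in WT and 7.20, 7.66 and 8.01 in KO in its brightest probe set. KO replicate 1 was the lowest and KO replicate 3 the highest array, and the difference was 0.11 (SE 0.15). A second probe set, the one with the smallest p among all 95, read 6.02, 6.16, 6.12 and 5.97 in WT and 6.56, 6.46 and 6.39 in KO. There every KO array lay above every WT array by more than the range within either group, and the difference was 0.42 (SE 0.08), with an adjusted limma p of 0.37 over the 28898 single-symbol probe sets and an exact permutation p of 0.0286, the smallest that 35 arrangements can give. The third gave -0.13, so the 3 probe sets of Eef2k did not show 1 direction.

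Probe sets of the same gene gave a measure of how far a value depends on the probes. Of the 28 members with over 1 probe set, 15 had differences of 1 sign in all of them and 13 did not, and the widest gap within such a gene of mixed sign was 0.55, in Eef2k. Over all 95 probe sets, 9 were higher and 2 lower in KO at an unadjusted limma p under 0.05, against 6.32% and 3.92% of the 28898 single-symbol probe sets. Of the 95, 0 passed the adjusted test, and the median difference was 0.002 against -0.02 over all of them. Eif5, Eif1ax, Eif3d, Eif4a1 and Eif6 had 1 sign in all their probe sets, while Eif2d, Eif4b, Eif4e2, Eif4ebp2 and Eif5a did not.

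**Figure D4:**
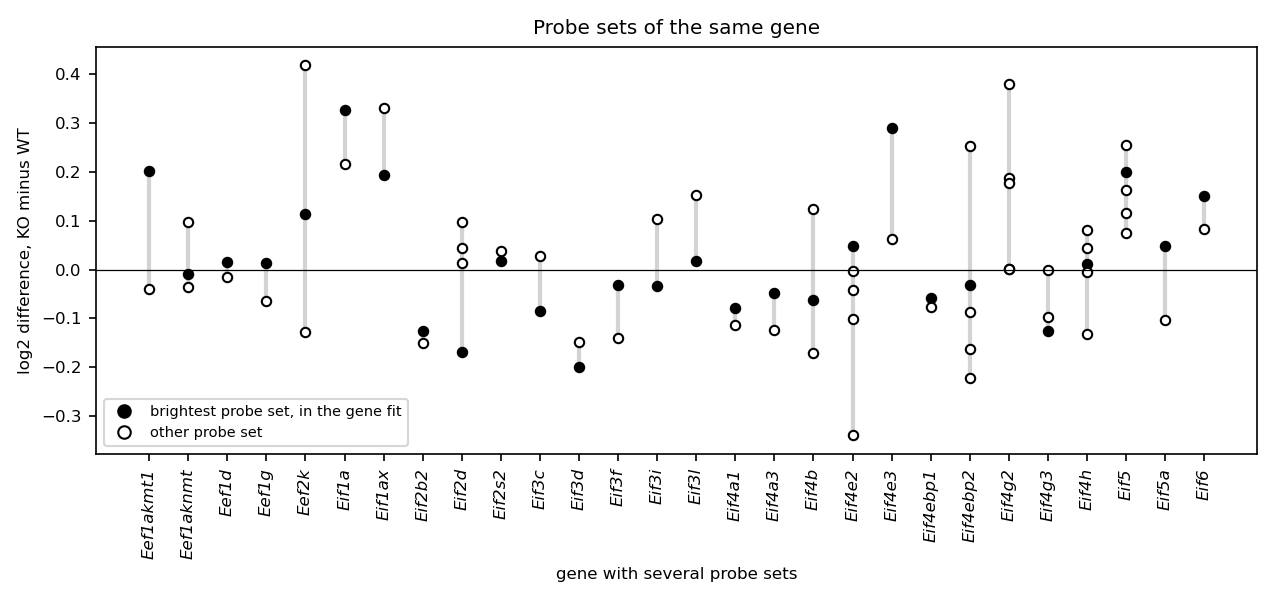
Log2 difference between KO and WT (y axis) for every probe set of the 28 translation factor genes with several (x axis); filled points are the brightest probe set, used in the gene fit, open points the others, and grey lines join probe sets of 1 gene. Eef2k spans -0.13 to 0.42, whereas all 5 probe sets of Eif5 lie between 0.07 and 0.25.

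The scan batches gave a second view of the same genes. Of the 45 members, 22 (48.9%) had the same direction in both batches, against 49.9% of all tested genes. The genotype by batch term had an unadjusted limma p under 0.05 for 8 members (17.8%), against 12.6% of all genes, and 0 members passed after adjustment, where 1 gene in all did. Batch 1 holds a single KO array, so its differences rest on that array. Among the members with a difference of 0.1 or more, Eif4e3 (0.25 and 0.32), Eif3d (-0.28 and -0.15), Eif2d (-0.12 and -0.20) and Eif2b2 (-0.14 and -0.12) were examples of 1 direction in both batches, and Eif1a (-0.36 and 0.78) had opposite signs.

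**Figure D5:**
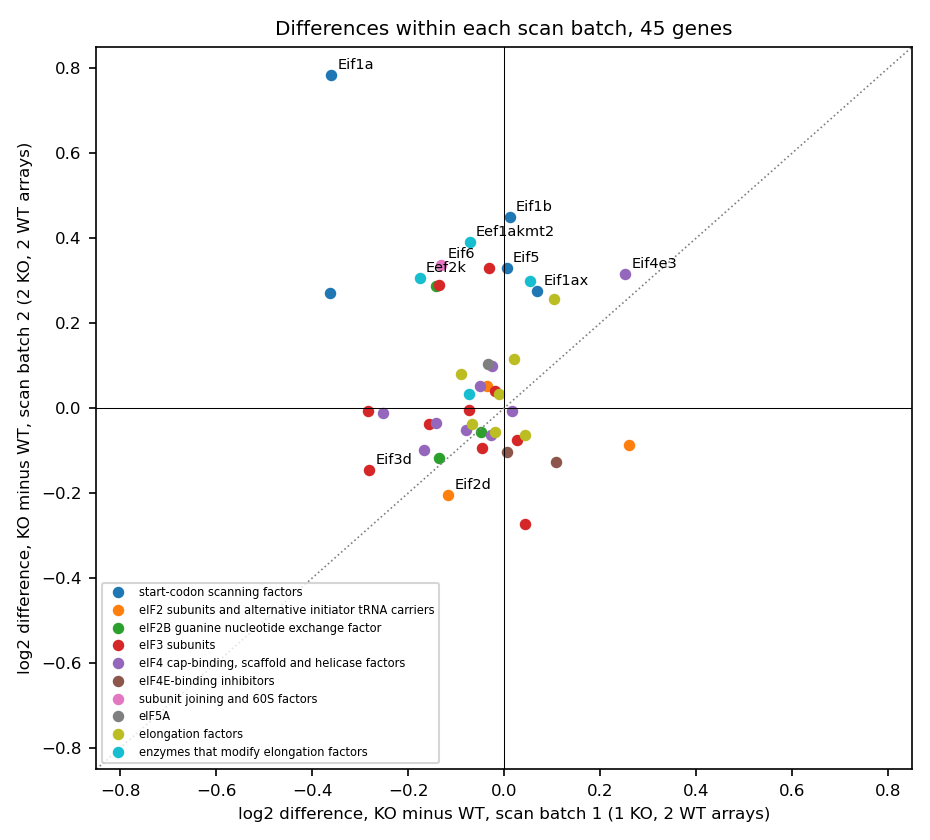
Log2 difference between KO and WT within scan batch 1 (x axis, 1 KO and 2 WT arrays) and scan batch 2 (y axis, 2 KO and 2 WT arrays) for the 45 translation factor genes, coloured by role; the dotted line marks equal differences. Eif4e3 lies near the line, while Eif1b and Eif5 lie near 0 on the x axis and at 0.45 and 0.33 on the y axis.

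The genes around these factors in the same pathway gave 0 genes past the adjusted limma test in all 8 lists. Of the 6 tested termination and recycling genes, 5 had a higher mean in KO with a median of 0.14, among them Gspt1, the release factor eRF3, at 0.14 (SE 0.08) and Denr, a recycling factor, at 0.21 (SE 0.14). The 12 poly(A) tail and cap regulators had 8 higher and a median of 0.04, with Pdcd4, an inhibitor of the eIF4A helicase, at 0.10 (SE 0.05) and Larp4, a poly(A) tail protector, at 0.14 (SE 0.07). Of 7 genes for eIF2 kinases and phosphatase subunits, 4 were lower, with a median of -0.07, and the stress-induced phosphatase subunit Ppp1r15a was at -0.18 (SE 0.16) and the Gcn2 inhibitor Impact at -0.10 (SE 0.08).

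In the mTORC1 and S6 kinase list, 6 of 14 were higher, with a median of -0.06. At an unadjusted limma p under 0.05, 1 gene was higher, Rragc at 0.25 (SE 0.10), and 1 lower, Lamtor2 at -0.24 (SE 0.10). Of all tested genes, 7.14% were higher and 4.26% lower at that threshold. Both Rragc and Lamtor2 encode parts of the lysosomal platform that recruits mTORC1. With the probe set of largest variance in place of the brightest, Lamtor2 was at 0.59. The cytosolic aminoacyl-tRNA synthetases, which charge tRNAs, had 13 of 19 genes lower in KO and a median of -0.07. In that list 3 genes were lower at an unadjusted limma p under 0.05, where 4.26% of all genes were, among them Sars, for serine, at -0.15 (SE 0.05, no overlap between groups) and Farsb, for phenylalanine, at -0.16 (SE 0.06) in its brightest probe set and 0.12 in that of largest variance.

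The enzymes for the hypusine of eIF5A and the diphthamide of eEF2 had 4 of 6 higher and a median of 0.09, with Dohh, the last step of hypusine synthesis, at -0.13 (SE 0.08) and Dph5, a diphthamide methyltransferase, at 0.17 (SE 0.13). The mitochondrial translation factors had 5 of 7 higher and a median of 0.05, with the elongation factor Gfm1 at 0.13 (SE 0.09) and the initiation factor Mtif2 at 0.16 (SE 0.13). Of the 6 selenocysteine genes, 2 were higher, with a median of -0.01. There Sepsecs, which makes selenocysteine on its tRNA, was at 0.27 (SE 0.08) and Sephs1 at -0.24 (SE 0.09; 0.16 in its probe set of largest variance), with adjusted limma p values of 0.388 and 0.414. Denr, Mtif2 and Dph5 had negative values in batch 1 (-0.16, -0.22 and -0.15) and positive values in batch 2 (0.46, 0.42 and 0.38), as Eif1a did.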

How the data were processed

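The values are log2 levels per probe set that the authors deposited; per the submitters' processing notes they were made with RMA, which corrects background, normalizes arrays together and summarises probes. The sources used here give no version, batch correction or filter for it. Normalizing arrays together removes any shift shared by most transcripts. The table held 0 columns outside the 7 samples.

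Probe sets were named from the platform annotation, and 46 of 46 member symbols matched RefSeq (GRCm38.p6) unchanged. The brightest probe set stood for a gene, and genes at or under a mean of 5.28 (the lowest 25%) were left out. KO was compared with WT across all 12822 genes in limma 3.58.1 (R 4.3.3; lmFit, eBayes with trend, scan batch as covariate, two-sided, Benjamini-Hochberg at 0.05, 4 residual degrees of freedom); the median SE was 0.09. Exact permutation tests were two-sided, over 35 arrangements of the arrays, and unlike the limma fit they ignore scan batch. Within scan batch there are 18 arrangements and the smallest p is 0.0556. The exact within-batch permutation p was 0.111 for Eif1ax and Eef1e1, 0.167 for Eif1b and Eif5, and 0.0556 for Eif3d and Eif4e3. It was not run for single probe sets. The differences come from the fit and group means from the values, so the latter can differ slightly. The fit was tested on simulated data in 10 runs, with 200 altered genes in each. It recovered 3.88% at a log2 size of 0.25, 47.3% at 0.5 and 85.8% at 1, and 4.11% of the calls were false. Each simulated gene had independent noise of the same spread on every array and no batch shift. On the real arrays these rates may differ. The lack of a call therefore does not show that a difference near 0.25 is absent.

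The members, role groups and pathway lists were chosen with earlier results of these data known. Members named are those with unadjusted p under 0.05, the one of smallest p in each role group, and 10 standard factors, 2 of which (Eif4g1, Eif2s1) were not analysed here; from each other list, the 2 of smallest p. All other members, and single probe sets, were named after their values were seen. Of the member genes, 6 rest on a probe set marked as cross-reactive. Tied values between arrays occur in 19995 probe sets.

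Alternatives were: no batch term, array weights, other choices of probe set, other level filters, other normalizations, no trend, Gapdh as covariate, each batch alone, each array left out and, chosen after seeing the data, leaving out both arrays with Y-linked signal.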

Additional observations from a re-analysis of the deposited data

Results flagged for a closer look

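Among 27 sets of values over the 4 WT arrays (the named members and the role groups), 1 had an array far from the others by Dixon's 95% critical value for a group of that size. The eIF3 subunits had a mean deviation of -0.0387 from the average of all arrays in WT replicate 4, against 0.0294, 0.0280 and 0.0414 in WT replicates 1, 2 and 3. Chance marks about 5% of such sets.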

How the results depend on the processing

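With array weights the genes passing at adjusted p under 0.05 numbered 1370 in all and 5 among the members, in place of 0; leaving out single arrays gave 0 to 2 in all and 0 among the members. The 4 members higher in KO at an unadjusted limma p under 0.05 became 1 without a batch term, 10 with array weights, 2 with the probe set of largest variance, 2 after quantile normalization, 0 with the Gapdh covariate, 0 in batch 1, 9 in batch 2, 1 without both arrays with Y-linked signal (chosen after seeing the data), 9 of 95 over all probe sets, and 0 to 10 with single arrays left out: 0 when WT replicate 1, 3 or 4 or KO replicate 3 was missing, 1 when KO replicate 2 was, 7 when WT replicate 2 was and 10 when KO replicate 1 was. The 1 lower member became 4 with array weights, 0 with the probe set of largest variance, the mean of probe sets or no trend, 2 with no level filter, a common median, the Gapdh covariate or all probe sets, and 0 to 3 with single arrays left out. In the main fit 7.14% of all genes were higher and 4.26% lower at that threshold, and over all probe sets 6.32% and 3.92% were. For the other settings the shares of all genes are not given, so these counts are not results about the members. The median member difference of 0.01 was -0.0457 in batch 1 and -0.01 to 0.03 with single arrays left out. The 5 members without overlap became 2 with the probe set of largest variance, 26 and 28 within batches 1 and 2 (where so few arrays leave 58.8% and 57.2% of all genes without overlap), 13 without both arrays with Y-linked signal (22.7% of all genes), 10 over all probe sets, and 5 to 13 with single arrays left out. With all 7 arrays, 2.68% of all genes lay without overlap on the higher side and 3.23% on the lower side. Fewer arrays leave more genes without overlap. The shares with single arrays left out and with other choices of probe set are not given, so those counts are not results about the members. Lamtor2 reversed to 0.59 with the probe set of largest variance and 0.17 with the mean of probe sets, Farsb to 0.12 with the former, and Sephs1 to 0.16 and 0.0155 in the same order. The cause was not tested. Eif1ax, Eif4e3, Eif1b, Eif5 and Eif3d kept their sign in all 21 alternatives run for single genes, with ranges of 0.07 to 0.33, 0.18 to 0.39, 0.01 to 0.45, 0.005 to 0.33 and -0.28 to -0.15. Some alternatives could not change the sign: no trend and other level filters leave the estimate as it was, and Eif1b has only 1 probe set. Leaving out KO replicate 1 repeats the estimate of batch 2 alone. Of the 17 members named by rule, 7 turned sign in at least 1 alternative. No paired analysis was possible because the labels give no shared replicate numbers. The number of arrays limits the precision: at the median SE of 0.09, differences as small as most of those printed cannot be told from 0.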
